A study of Capsicum chinense with 22 samples.

Results

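Transcript levels of 5 defensin genes were examined in the fruit pericarp of *Capsicum chinense*. They were defensin J1-1 (LOC107838797), the flower-specific defensin-like genes LOC107849555, LOC107877539 and LOC107877541, and defensin Ec-AMP-D1-like (LOC107855074), among 16922 genes in the deposited table. The genes were chosen by their measured values across these same libraries, so their levels and differences are given as a description, with errors but with no test. The table held 14 further genes with defensin or thionin in their names, which brings the family to 19 genes, and tests were run on these 14. Genes are named as in the *C. annuum* annotation of the table.

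RNA was sequenced from pericarp at 60 and 20 days after anthesis (DAA), in mature and immature fruits, to follow ripening in accessions that differ in colour and pungency. The 60 DAA groups were the red pungent Hab (2 libraries), the red non-pungent Biq (3), the yellow pungent A101 (3) and the yellow non-pungent A18 (3). The 20 DAA groups were the same Hab (3), Biq (3), A101 (3) and A18 (2), all grown untreated in a greenhouse. Hab (Habanero) and Biq (Biquinho) are commercial cultivars, A101 and A18 are germplasm bank accessions, and each library came from fruits of a single plant. Colour and pungency were each represented by a pair of accessions per class, so any difference by colour or pungency cannot be told apart from other differences between those accessions.

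Plant defensins are small secreted peptides whose many cysteines form disulfide bridges, and many of them stop the growth of fungi by acting at the fungal membrane. In bell pepper (*C. annuum*) the J1 defensins are known from ripening fruit, whereas the flower-specific type was first described in tobacco flowers. Ec-AMP-D1 is a seed defensin of barnyard grass, a distant relative, so this name reports sequence similarity only.

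Values are variance-stabilized, behave much like log2 values, and were centred so that every gene averages 0 across the 22 libraries. A value therefore compares libraries for the same gene, and 0 marks that gene's own mean and not an absence of transcript. Levels of different genes cannot be compared, and the table does not hold the depth per library. The library sizes that the study plotted were not used here. Where several libraries share a gene's lowest value, the size of a difference is limited by it. This occurred in at least 3 libraries for 7 of the 14 further genes and for 0 of the 5 genes described.

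The labelled tissue was compared with marker lists. Marker genes were counted by limma at an adjusted p under 0.05 with an average difference of at least 1. At that threshold 13.2% of all genes were higher at 60 DAA and 21.5% lower. Light-harvesting genes of the chloroplast were lower at 60 DAA in 21 of 25, and cuticle genes of the epidermis were lower in 24 of 32 and higher in 5. The light-harvesting genes averaged between −1.96 and −0.26 per library at 60 DAA, against −0.49 to 2.81 at 20 DAA, so the stages overlapped. Of the cuticle genes, 17 had at least 3 libraries at their lowest value. Of 13 chromoplast genes, 3 were higher at 60 DAA and 2 lower (median difference 0.18). Capsanthin/capsorubin synthase (LOC107875664), the enzyme that makes the red pepper carotenoids, was 11.82 ± 0.17 (SE) higher (limma, adjusted p = 2.02e-21). Phytoene synthase 2 (LOC107859651) was at −2.11. Of the other tissues that a pericarp sample could hold, pollen and anther genes averaged between −0.54 and −0.08 per library at 60 DAA, against 0.05 to 0.55 at 20 DAA, with 2 of 9 higher and 5 lower. Seed storage genes averaged between −0.57 and 1.27 at 60 DAA, against −0.54 to −0.15 at 20 DAA, with 1 of 3 higher. No gene name (0) matched the placenta list of capsaicinoid synthesis. Their part in the levels of the defensin genes was not tested, and in pericarp as a whole a smaller share of expressing cells and less RNA per cell cannot be told apart.

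Some 20 DAA libraries stood apart from the others of their group in the defensin family. Libraries are called a, b and c by the order of their columns, since the columns carry no replicate number. In A18 at 20 DAA, library b was at least 1 above library a in 10 of the 19 family genes (52.6%), against 1.12% of all genes, and it was the higher library in 18 of the 19. In Hab at 20 DAA, library b was at least 1 above the mean of a and c in 7 of the 19 (36.8%), against 1.86% of all genes, and at least 1 below it in 2. Library a of Hab was at least 1 below the mean of b and c in 8 of the 19, against 1.81% of all genes. Library a of Biq was at least 1 above the mean of b and c in 4 of the 19, against 0.50% of all genes. The 19 include the 5 genes chosen by their values in these same libraries. Library b of A18 was higher by 2.23 in LOC107849555, by 2.13 in LOC107877539 and by 1.97 in LOC107877541, but by 0.60 in defensin J1-1 (LOC107838797). At 60 DAA no library was at least 1 away from its group in more than 1 family gene. Stage differences of A18 therefore rest on 2 unequal libraries. They are given below with and without library b for LOC107849555, LOC107877539, LOC107877541 and Ec-AMP-D1-like (LOC107855074). Those of the further genes include library b unless stated.

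**Figure D1:**
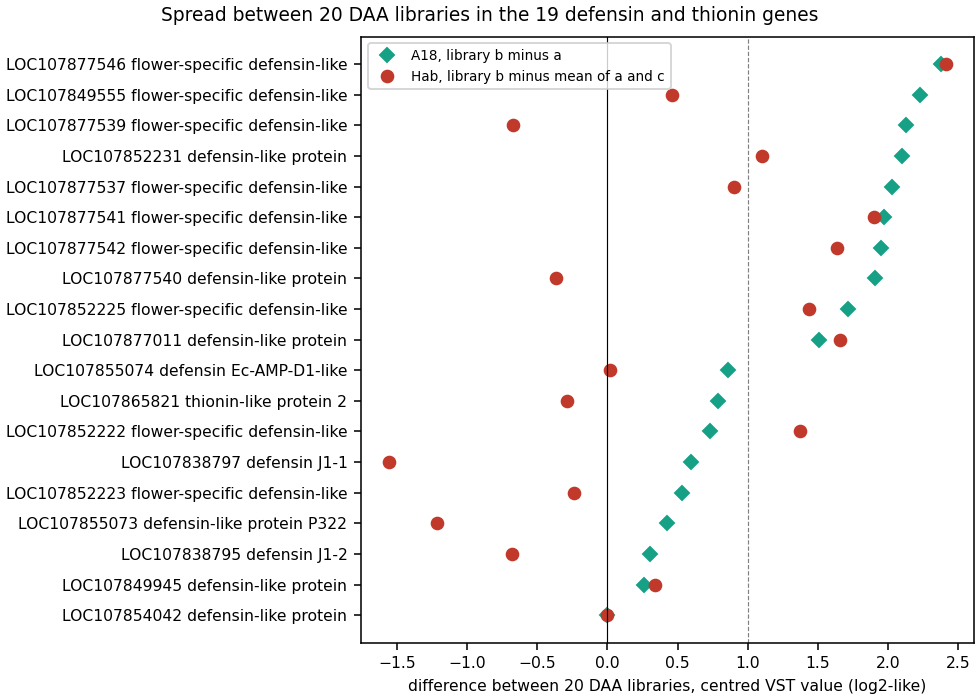
Difference between 20 DAA libraries of the same group for the 19 defensin and thionin genes, in centred variance-stabilized values on a scale close to log2. Diamonds are A18 (library b minus a), circles are Hab (library b minus the mean of a and c), and the dashed line marks a difference of 1, which 10 of the 19 genes reached in A18.

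Defensin J1-1 (LOC107838797) was the gene of the family with the widest range. At 60 DAA its values were 5.52 and 5.42 in Hab, 5.01, 5.60 and 5.27 in Biq, 5.04, 4.81 and 5.11 in A101, and 4.82, 5.24 and 4.90 in A18. At 20 DAA they were −5.24, −7.17 and −5.98 in Hab, −5.61, −5.33 and −5.96 in Biq, −4.34, −3.32 and −3.02 in A101, and −5.68 and −5.08 in A18. Every 60 DAA library was above every 20 DAA library, with a gap of 7.84 between the lowest of the 60 DAA libraries and the highest of the 20 DAA libraries.

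On average over the accessions, J1-1 was 10.36 ± 0.19 (SE) higher at 60 than at 20 DAA, the second largest positive difference of the 16922 genes. Its variance over the libraries also ranked 2 among all genes, and 97.5% of it lay between the stages. At 60 DAA the 11 libraries lay within 4.81 to 5.60, and each accession overlapped with its neighbour in the order Hab, Biq, A101 and A18, although both Hab libraries lay above every library of A101 and of A18. At 20 DAA A101 averaged −3.56 ± 0.69 (SD, n = 3) and did not overlap with A18, the next lower accession, at −5.38 ± 0.42 (SD, n = 2). The order of A18, Biq and Hab at 20 DAA was not resolved, since their ranges overlapped.

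**Figure D2:**
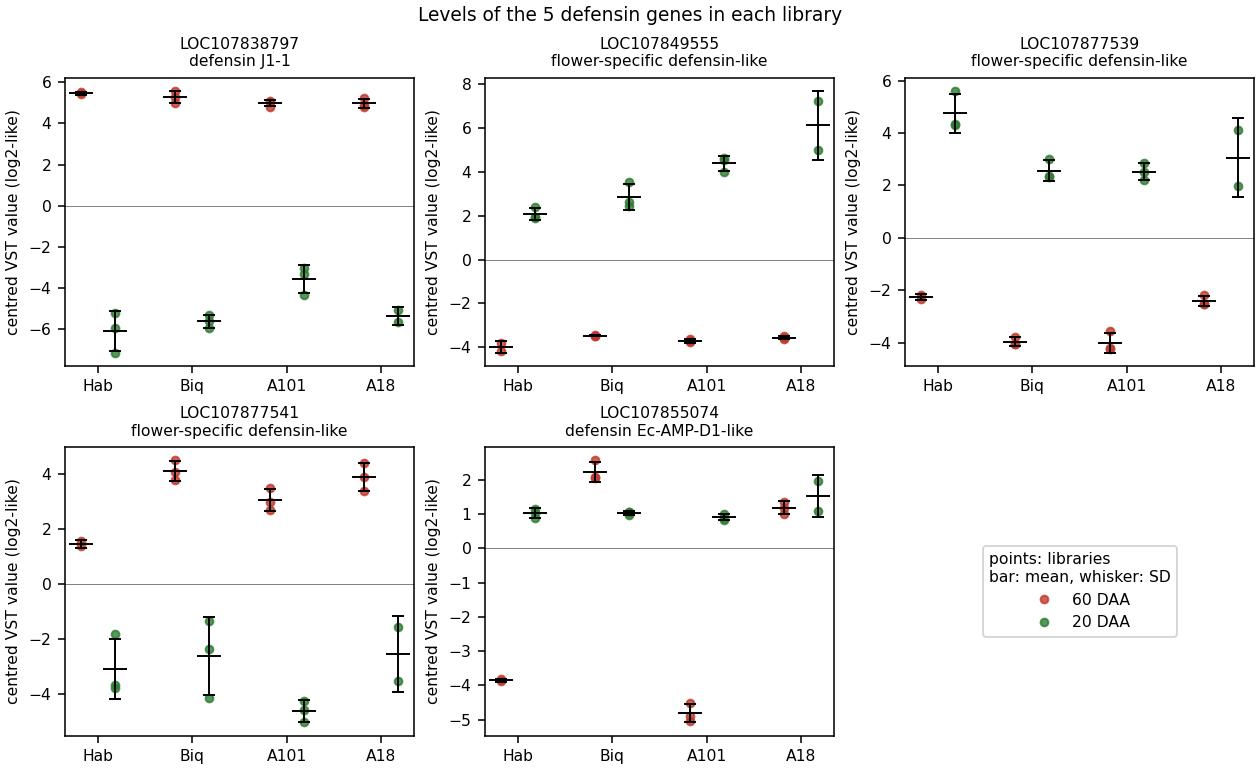
Levels of the 5 defensin genes in every library, in centred variance-stabilized values on a scale close to log2, by accession and with 60 DAA (red) left of 20 DAA (green). Points are libraries, bars are group means and whiskers are SD. J1-1 and LOC107877541 were higher at 60 DAA in every accession, LOC107849555 and LOC107877539 were lower, and Ec-AMP-D1-like was lower in Hab and A101 but not in Biq.

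The paralog defensin J1-2 (LOC107838795), the other J1 peptide known from pepper fruit, was outside the choice of the 5 genes and was tested. It was 3.48 ± 0.12 (SE) higher at 60 DAA on average (limma with Benjamini-Hochberg adjustment over all genes, adjusted p = 5.61e-16), and higher in all 4 accessions. At 60 DAA its values were 3.18 and 3.14 in Hab, 0.65, 0.67 and 1.14 in Biq, 1.92, 1.41 and 1.46 in A101, and 1.44, 2.09 and 1.63 in A18. At 20 DAA they were −1.53, −2.56 and −2.24 in Hab, −2.57, −2.13 and −2.45 in Biq, −1.01, −1.02 and −0.84 in A101, and −1.34 and −1.04 in A18. The stages did not overlap, and within both stages the accessions differed (adjusted p = 1.62e-06 at 60 DAA and 6.28e-05 at 20 DAA). Hab was the highest accession at 60 DAA and lay apart from A18, the next in order, whereas Biq was the lowest. J1-1 and J1-2 thus both had higher values at 60 DAA than at 20 DAA.

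LOC107849555, a flower-specific defensin-like gene, was lower in ripe fruit. At 60 DAA it stood at −3.78 and −4.17 in Hab, −3.46, −3.48 and −3.46 in Biq, −3.62, −3.77 and −3.73 in A101, and −3.59, −3.47 and −3.61 in A18. At 20 DAA it stood at 1.87, 2.38 and 1.95 in Hab, 3.53, 2.43 and 2.61 in Biq, 4.54, 3.99 and 4.62 in A101, and 5.00 and 7.23 in A18. The accessions formed a series at 20 DAA, with A18 highest and then A101, Biq and Hab, in which no neighbours overlapped, while all 11 libraries at 60 DAA lay between −4.17 and −3.46.

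The average stage difference of LOC107849555 was −7.53 ± 0.20 (SE), the 11th most negative among all genes. It was −6.04 ± 0.41 for Hab and −6.32 ± 0.37 for Biq, against −8.09 ± 0.37 for A101 and −9.67 ± 0.41 for A18, so the yellow accessions had the more negative differences. The value of A18 was −8.56 without its library b at 20 DAA and −10.79 without library a, and in both cases it remained the most negative of the 4 accessions. The difference between red and yellow accessions in the stage difference was 2.70 ± 0.39, and that between pungent and non-pungent ones was 0.93 ± 0.39.

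LOC107877539, a flower-specific defensin-like gene with the same direction, ordered the accessions differently. Its values at 60 DAA were −2.19 and −2.35 in Hab, −4.04, −3.78 and −4.05 in Biq, −3.55, −4.20 and −4.24 in A101, and −2.51, −2.20 and −2.53 in A18. Its values at 20 DAA were 4.33, 4.30 and 5.62 in Hab, 3.03, 2.36 and 2.32 in Biq, 2.22, 2.50 and 2.85 in A101, and 1.99 and 4.12 in A18. Hab was highest at both stages and did not overlap with the next accession at 20 DAA, whereas it was the lowest accession for LOC107849555 at both stages.

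On average LOC107877539 was −6.38 ± 0.21 (SE) at 60 relative to 20 DAA, with −7.02 ± 0.45 for Hab and −6.53 ± 0.40 for Biq, against −6.52 ± 0.40 for A101 and −5.46 ± 0.45 for A18. The value of A18 was −4.40 without library b at 20 DAA. At 60 DAA the accessions fell into a higher pair, Hab and A18, and a lower pair, Biq and A101, which did not overlap. This grouping followed neither colour nor pungency, because each pair held a red and a yellow accession, and a pungent and a non-pungent one.

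LOC107877541 carries the same name, flower-specific defensin-like, but was higher in ripe fruit. It had values of 1.37 and 1.57 in Hab, 4.07, 3.79 and 4.50 in Biq, 3.51, 2.71 and 3.00 in A101, and 3.37, 4.39 and 3.89 in A18 at 60 DAA. It had values of −3.80, −1.83 and −3.67 in Hab, −1.33, −4.15 and −2.38 in Biq, −4.25, −5.04 and −4.60 in A101, and −3.53 and −1.56 in A18 at 20 DAA. Every 60 DAA library was above every 20 DAA library by at least 2.70, and Hab was the lowest accession at 60 DAA without overlap.

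The average difference of LOC107877541 was 6.36 ± 0.32 (SE), with 4.57 ± 0.67 for Hab and 6.74 ± 0.60 for Biq, against 7.70 ± 0.60 for A101 and 6.43 ± 0.67 for A18 (7.42 without library b at 20 DAA). Its SD between libraries at 60 DAA was 0.14 for Hab, 0.36 for Biq and 0.51 for A18, and that at 20 DAA was 1.10 for Hab, 1.42 for Biq and 1.40 for A18, while the SD for A101 was 0.40 at both stages. Of the 9 genes named flower-specific defensin-like in the table, LOC107877541 was the only one with a positive average difference, and the other 8 were negative. The study quantified reads of *C. chinense* against a *C. annuum* reference, and how reads were shared between near-identical copies of this name was not analysed here, so the separate values of such copies are uncertain.

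In defensin Ec-AMP-D1-like (LOC107855074) the accessions lay close together at 20 DAA and far apart at 60 DAA. At 60 DAA its values were −3.88 and −3.83 in Hab, 2.08, 2.04 and 2.56 in Biq, −4.51, −5.03 and −4.89 in A101, and 0.99, 1.36 and 1.18 in A18. At 20 DAA they were 0.88, 1.04 and 1.16 in Hab, 1.06, 1.07 and 0.96 in Biq, 0.83, 0.99 and 0.89 in A101, and 1.09 and 1.95 in A18. The immature fruits of all accessions lay between 0.83 and 1.95, and at 60 DAA the pungent Hab and A101 lay far below the non-pungent Biq and A18. A wider range of accession means at 60 DAA was not particular to this gene. The range was 0.11 at 20 DAA and 4.80 at 60 DAA in LOC107854042, and 0.91 and 4.29 in LOC107877540. Other further genes did the reverse, such as LOC107852222 (7.33 and 0.08).

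Between stages, Ec-AMP-D1-like was −4.88 ± 0.20 (SE) in Hab and −5.71 ± 0.18 in A101, but 1.20 ± 0.18 in Biq and −0.35 ± 0.20 in A18. The value of A18 was 0.085 without library b at 20 DAA and 0.14 with quantile normalization, so its direction was not settled. The range of accession means at 60 DAA was the 7th widest of the 16922 genes. The stage difference of pungent minus non-pungent accessions was −5.72 ± 0.19, the most negative of all genes, against 1.19 ± 0.19 for red minus yellow. These values follow from a gene chosen on its values in these groups, and with a pair of accessions on each side they do not separate pungency from accession. Stages accounted for 19.5% of the variance of the gene and accessions within stages for 79.9%, whereas in the 4 other genes described the stages accounted for between 89.6% and 97.5%.

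Of the 5 genes described, 2 had every 60 DAA library above every 20 DAA library, 2 had every one below, and 1 overlapped. Among all genes 15.7% were above and 21.6% below in this way, shares beside which the selected genes are only listed. Of the 14 further genes, 3 were entirely above (LOC107838795, LOC107849945 and LOC107854042), 3 entirely below (LOC107865821, LOC107877537 and LOC107877542) and 8 overlapped.

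The 14 further genes of the family all changed on average between the stages: 5 were higher at 60 DAA and 9 lower, at an adjusted p under 0.05 with a difference of at least 1. Among all genes 13.2% were higher and 21.5% lower, and the median difference was −1.47 for the 14 genes, against −0.08 for all genes. The 5 that rose on average were defensin J1-2 and the defensin-like proteins LOC107849945, LOC107852231, LOC107854042 and LOC107877540. By accession, LOC107852231 was called higher in Biq (3.89) and A101 (2.02), but not called in Hab (0.77) or A18 (−0.93). LOC107877540 was not called in A18 (−0.93). The 9 that fell included all 6 of the flower-specific defensin-like genes outside the choice, the defensin-like protein LOC107877011, defensin-like protein P322 (LOC107855073), named after a potato tuber protein, and thionin-like protein 2 (LOC107865821). Library scaling matters for such counts: quantile normalization moved the median of all genes to 0.05 and the share of higher genes among those called to 48.6%, against 38.1% without it. LOC107852223 and LOC107852225 then missed the minimum difference, at −0.97 and −0.87.

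**Figure D3:**
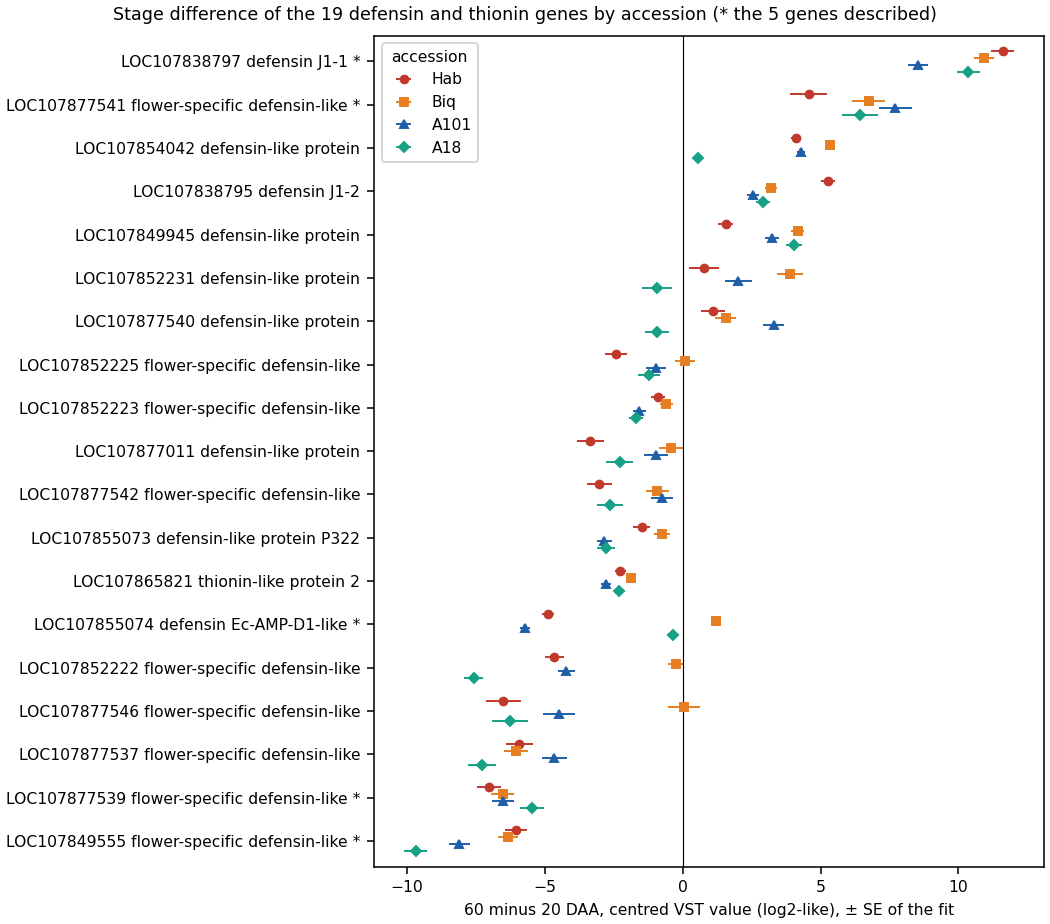
Difference between 60 and 20 DAA (60 minus 20) in each accession for the 19 defensin and thionin genes, in centred variance-stabilized values on a scale close to log2, with the SE of the fit as whiskers. Asterisks mark the 5 genes described, and genes are ordered by their average difference, from J1-1 at 10.36 (top) to LOC107849555 at −7.53 (bottom).

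The largest falls were in flower-specific defensin-like genes. LOC107877537 fell by 5.97 on average (SE 0.24, adjusted p = 6.44e-15) and was lower in all 4 accessions. LOC107877546 fell by 4.29 (SE 0.31, adjusted p = 7.91e-11) and LOC107852222 fell by 4.17 (SE 0.16, adjusted p = 3.79e-15), and both were called in Hab, A101 and A18 but not in Biq. LOC107877542, LOC107852223 and LOC107852225 had smaller average differences of −1.83, −1.19 and −1.12. The difference of LOC107852225 was −0.79 without libraries b of A18 and Hab at 20 DAA, and −0.91 without library b of A18 alone, which ended its call, while the other 13 genes were still called without those libraries.

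In LOC107877546 the values at 60 DAA were −2.21 and −2.26 in Hab, −1.67, −1.99 and −1.64 in Biq, −1.97, −2.31 and −2.29 in A101, and −2.13, −2.02 and −2.08 in A18. At 20 DAA they were 2.47, 5.88 and 4.44 in Hab, −1.58, −1.83 and −2.03 in Biq, 1.94, 2.34 and 2.59 in A101, and 2.98 and 5.36 in A18. Biq was thus low at both stages, with a stage difference of 0.05 ± 0.58 (SE), against −6.50 ± 0.65 in Hab, −4.48 ± 0.58 in A101 and −6.25 ± 0.65 in A18. The same held for LOC107852222, with −0.24 ± 0.30 in Biq against −4.65 ± 0.34 in Hab, −4.21 ± 0.30 in A101 and −7.57 ± 0.34 in A18. For LOC107852222, 9 of the 22 libraries shared the lowest value, all at 60 DAA, so the falls are limited by it.

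Among the genes that rose, LOC107854042 had its highest values in Biq at 60 DAA (3.22, 3.95 and 3.52), followed by A101 (2.54, 2.34 and 2.92) and Hab (2.45 and 2.16). In A18 at 60 DAA it stood at −1.31, −1.16 and −1.23, close to the 20 DAA libraries, which all lay between −1.79 and −1.62. Of the 22 libraries, 9 shared the lowest value of the gene, all at 20 DAA, so its rises and their SEs are limited by it. The stage difference of LOC107854042 was 4.10 ± 0.17 (SE) for Hab, 5.36 ± 0.15 for Biq and 4.29 ± 0.15 for A101. It was 0.56 ± 0.17 for A18, which missed the minimum difference but was called with quantile normalization (1.07, limma, adjusted p = 1.82e-05). LOC107877540 showed the same accession at the bottom: at 60 DAA it averaged 0.86 in Hab, 0.41 in Biq and 2.79 in A101, against −1.50 in A18. LOC107849945 rose by 3.25 ± 0.13 on average (adjusted p = 9.52e-15), and was higher in all 4 accessions, with the smallest difference in Hab (1.56 ± 0.28).

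**Figure D4:**
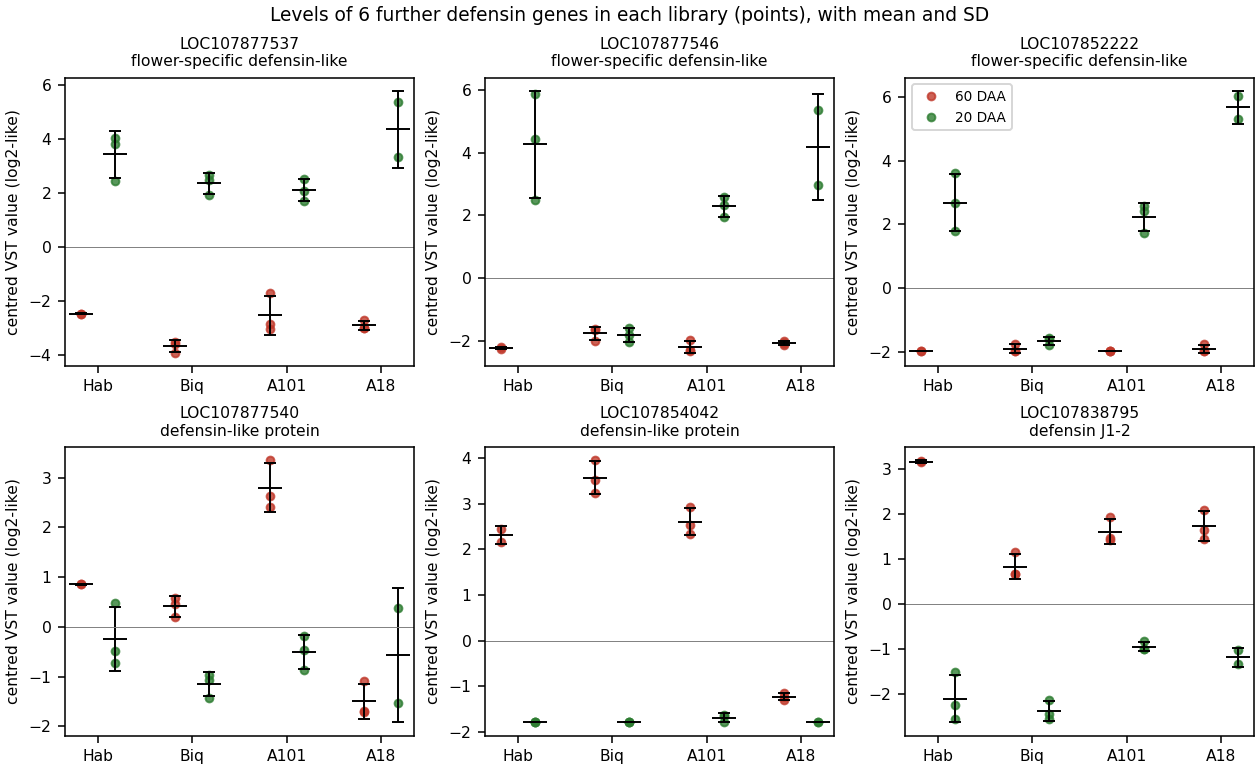
Levels of 6 further defensin genes in every library, in centred variance-stabilized values on a scale close to log2, by accession and with 60 DAA (red) left of 20 DAA (green). Points are libraries, bars are means and whiskers are SD. At 20 DAA Biq was low in LOC107877546 and LOC107852222, and at 60 DAA A18 was low in LOC107877540 and LOC107854042.

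By accession, the 14 further genes were called higher and lower in unequal numbers. In Hab 4 were higher and 8 lower, where 18.7% and 26% of all genes were called. In Biq 5 were higher and 2 lower, where the shares were 15.5% and 23.3%. In A101 5 were higher and 6 lower, with shares of 10.6% and 19.7%. In A18 2 were higher and 9 lower, with shares of 11.4% and 20.6%, and without library b of A18 at 20 DAA the number lower in A18 was 8. LOC107852225 was the gene lost (−0.37), and without library a instead the number was 11. The call of LOC107877540 in Hab (1.10 ± 0.42, adjusted p = 0.0225) was lost without library a or b of Hab at either stage. In A18 the 2 genes higher were J1-2 and LOC107849945, and in Biq the 2 genes lower were LOC107877537 and thionin-like protein 2 (LOC107865821).

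Differences between the accessions were counted within each stage. At 60 DAA 6 of the 14 differed between accessions (moderated F over the 4 accessions), where 30.2% of all genes did, and at 20 DAA 10 of the 14 differed, where 15.9% did. Among the 7 genes without tied lowest values, 5 differed at 60 DAA and 4 at 20 DAA. Of the 11 libraries at 60 DAA, 10 stood at the lowest value for LOC107877542 and 9 for LOC107852222. LOC107852231 lost its call at 60 DAA without library a of A101 or of A18, and thionin-like protein 2 (LOC107865821) lost its call at 20 DAA without library a or b of A101 or library a of Biq. The stages were not compared by a test in this respect. LOC107852222 had the widest range of accession means at 20 DAA, 7.33 (adjusted p = 9.69e-12), between A18 and Biq. LOC107877546 had a range of 6.08 (adjusted p = 1.70e-07) and LOC107852231 of 4.65 (adjusted p = 1.41e-06), and Biq was lowest in both.

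Whether the stage change differed between the red and yellow accessions, or the pungent and non-pungent ones, was tested on the further genes. The spread in these tests was between libraries and not between accessions. The p-values therefore apply to these accessions and do not test colour or pungency in general. For red minus yellow, 6 of the 14 had a more positive stage change in red accessions and 0 a more negative one in limma, where 6.38% and 4.63% of all genes were called. An unadjusted p under 0.05 in limma was reached by 9 of the 14, and the share of all genes at that level is not given here. The 6 genes were J1-2, LOC107852222, LOC107852231, LOC107854042, P322 (LOC107855073) and LOC107877546. With quantile normalization J1-2 was no longer called (0.86) and LOC107849945 was called as more negative (−1.44). In J1-2 and P322 both red accessions had a more positive stage difference than both yellow ones, and for P322 these were −1.49 for Hab and −0.75 for Biq, against −2.83 for A101 and −2.77 for A18. In LOC107852222, LOC107877546 and LOC107854042 accessions of the same colour were far apart, with stage differences of LOC107854042 at 4.29 in A101 and 0.56 in A18.

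For pungent minus non-pungent, 3 of the 14 were more positive and 3 more negative, where 1.65% and 1.8% of all genes were called. LOC107877540 had 1.88 ± 0.40 (SE, adjusted p = 0.00232) and LOC107854042 had 1.23 ± 0.16 (adjusted p = 1.84e-05). LOC107877546 had −2.39 ± 0.61 (adjusted p = 0.00914) and LOC107849945 had −1.70 ± 0.26 (adjusted p = 0.000138). In LOC107849945 both pungent accessions had the smaller stage differences (Hab 1.56, A101 3.23, Biq 4.17, A18 4.03). Accessions of the same class were far apart in LOC107854042 (Biq 5.36, A18 0.56) and LOC107877540 (Biq 1.56, A18 −0.93). They were also far apart in LOC107877546 (Biq 0.05, A18 −6.25), where Hab was at −6.50. The calls of LOC107877537 (1.38 ± 0.47, adjusted p = 0.0436) and of LOC107852225 (−1.11 ± 0.38, adjusted p = 0.0449) were lost when any of 15 and 18 of the 22 libraries was left out. For LOC107877537 the value was 0.87 without library b of A18 at 20 DAA (adjusted p = 0.159), and over all alternatives its adjusted p ran up to 1, with limma's treat, which tests against a difference of 1. For LOC107852225 it was −0.69 without library a of A18 at 20 DAA (adjusted p = 0.152), and its adjusted p also ran up to 1 with treat.

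Genes whose numbers stand close together in the annotation shared a direction in some cases and not in others. LOC107838795 and LOC107838797 (J1-2 and J1-1) were both higher at 60 DAA. On average LOC107852222, LOC107852223 and LOC107852225 were all lower, but LOC107852231 was higher. Of the genes numbered LOC107877537 to LOC107877546, LOC107877537, LOC107877539, LOC107877542 and LOC107877546 were lower on average at 60 DAA, while LOC107877540 and LOC107877541 were higher. LOC107855074 (Ec-AMP-D1-like) and LOC107855073 (P322) were both lower on average, at −2.43 ± 0.10 and −1.96 ± 0.15 (SE), and had opposite signs in Biq. P322 was at −1.03 and −0.90 in Hab, −0.21, 0.67 and −0.18 in Biq, −1.04, −1.76 and −1.53 in A101, and −1.59, −1.34 and −1.75 in A18 at 60 DAA, without the separation of pungent from non-pungent accessions. Positions in the genome were not used here, so neighbouring numbers are given as names only.

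The levels of the 5 genes were also set against those of every other gene. Correlations over the 22 libraries are descriptive, because libraries share stage and accession. The named genes most like J1-1 were a 1-aminocyclopropane-1-carboxylate oxidase homolog (LOC107870641, r = 0.99), a NAC domain protein (LOC107867776, r = 0.99) and a DIVARICATA-like transcription factor (LOC107850892, r = 0.99), although the last had a Spearman's rho of 0.80 and ranked 1283 by that measure. For LOC107849555 they were an alkaline/neutral invertase (LOC107840527, r = 0.99), a gamma-glutamyltranspeptidase (LOC107871033, r = 0.99) and a DETOXIFICATION 18-like transporter (LOC107845742, r = 0.99). For LOC107877539 they were beta-galactosidase 8 (LOC107847649), glutamate receptor 3.4 (LOC107878244) and an anthocyanidin glucosyltransferase (LOC107848248), each with r = 0.98. For LOC107877541 they were an acidic glucan endo-1,3-beta-glucosidase (LOC107853918, r = 0.97), the defensin-like protein LOC107849945 (r = 0.97) and the kinase RBK1 (LOC107851077, r = 0.96). Stage alone gives high correlations, since many genes differ between the stages.

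After each stage's mean was subtracted, J1-1 was most like a putative auxin efflux carrier (LOC107840033, r = 0.90), a miraculin-like protein (LOC107875844, r = 0.89) and a low-temperature-induced protein (LOC107863294, r = 0.87). LOC107849555 was still most like the invertase LOC107840527 (r = 0.88), followed by a dynein assembly factor (LOC107851671, r = 0.86) and a MafA-like factor (LOC107839592, r = 0.85). LOC107877539 was most like a UBX domain protein (LOC107842650, r = 0.86), ribosomal protein S8 (LOC107878774, r = 0.85) and a tyrosine aminotransferase (LOC107878340, r = 0.85). For LOC107877541 the genes were a receptor-like kinase (LOC107851162, r = 0.85), a random slug protein 5-like gene (LOC107862109, r = 0.82) and a thioesterase (LOC107859398, r = 0.81). By Spearman's rho the UBX domain protein gave 0.65 and ribosomal protein S8 gave 0.73, at ranks 128 and 22. The low-temperature-induced protein gave 0.72 at rank 36, and the invertase gave 0.80 at rank 95. The auxin efflux carrier and the receptor-like kinase each ranked 1 by that measure.

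Ec-AMP-D1-like (LOC107855074) was, over all libraries, most like a protein disulfide-isomerase (LOC107871202, r = 0.92), the AP2-like factor TOE3 (LOC107860268, r = 0.92) and a polyamine transporter (LOC107850299, r = 0.91). With stage means subtracted it was most like cytochrome P450 98A2-like (LOC107844024, r = 0.96), RNA polymerase II subunit RPB7 (LOC107873487, r = 0.95) and HVA22-like protein e (LOC107875806, r = 0.93). By Spearman's rho TOE3 gave 0.62 and the polyamine transporter 0.65 over all libraries, at ranks 100 and 72, and P450 98A2-like gave 0.82 and RPB7 0.93 with stage means subtracted, so the order of likeness depended on the measure.

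Among the 5 genes themselves, the correlation between LOC107849555 and LOC107877539 was 0.89 over all libraries, but −0.25 once stage means were subtracted. That between J1-1 and LOC107877541 was 0.91 over all libraries and −0.55 with stage means subtracted. In both of these pairs, genes with the same direction between stages thus did not have the same order of libraries within a stage. Ec-AMP-D1-like (LOC107855074) was also lower on average at 60 DAA. Its correlation with LOC107849555 was 0.72 within 60 DAA and 0.63 within 20 DAA. With LOC107877539 the correlations were 0.062 and 0.33.

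Other defence peptides and proteins, listed by words in their names, were counted with the same threshold and the average stage difference, at which 13.2% of all genes were higher and 21.5% lower. Of 8 snakins, another family of cysteine-rich antimicrobial peptides, 2 were higher and 4 lower at 60 DAA, with snakin-1 (LOC107867209) at −5.24 ± 0.15 (SE, adjusted p = 2.91e-17) and snakin-2 (LOC107840525) at 1.67 ± 0.23 (adjusted p = 1.56e-06). Of 5 hevein-type proteins, which bind chitin, 1 was higher and 4 lower, with the chitin-binding lectins LOC107862238 at −6.80 and LOC107864800 at −6.60. The hevein-type gene called higher, PR-4-like LOC107840165, was at 1.05 and lost its call without library a of A18 at 20 DAA, library b of A18 at 60 DAA or library b of Biq at 20 DAA. The medians were −0.88 for the snakins and −4.48 for the hevein-type proteins.

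The lists that follow are also to be read beside the 13.2% of all genes that were higher and the 21.5% lower. Of 10 chitinases, 3 were higher and 2 lower (median −0.06), with the basic 30 kDa endochitinase LOC107840225 at 1.78 and chitinase-like protein 2 (LOC107851289) at −2.93. Of 10 thaumatin and osmotin proteins, 4 were higher and 5 lower (median −1.13), with the osmotin-like OSML13 (LOC107865671) at 2.90 and the osmotin-like LOC107853923 at −2.57. Of 3 PR-1 proteins 0 were called by limma at this threshold, while 2 had an unadjusted p under 0.05 and 2 an adjusted p under it without the minimum difference. The shares of all genes at those looser thresholds are not given here. Of 22 proteinase inhibitors, 6 were higher and 7 lower (median 0.21), with the PSI-1.2-like inhibitor LOC107855815 at 3.38 and the wound-induced inhibitor 2-like LOC107862766 at −6.11. Of 18 genes of jasmonate synthesis and signalling, the hormone pathway known to induce leaf defensins in Arabidopsis, 1 was higher and 8 lower (median −0.83), with allene oxide cyclase 4 (LOC107854684) at −3.40 and allene oxide synthase (LOC107848240) at −3.12. The jasmonate gene called higher, JAR1-like LOC107839284, was at 1.03 and lost its call without library b of Hab at 20 DAA.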

How the data were processed

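According to the submitters' processing notes and the methods, the authors used fastp 0.23.1 for trimming, Salmon 1.6.0 with the *C. annuum* Zunla-1 index for quantification, and DESeq2 1.36.0 in R 4.2.0. The deposited values are the authors' variance-stabilized counts, close to log2, centred per gene, for 16922 genes after a filter on low counts. The table holds no depth, the library sizes plotted by the study were not used here, and precision comes from the spread between libraries. The DESeq2 test of the methods could not be run on such values, so group means were fitted with limma 3.58.1 in R 4.3.3 (14 residual degrees of freedom) on all 8 groups, with Benjamini-Hochberg adjustment over all genes, a threshold of 0.05 and a minimum difference of 1. Tables and figures used Python 3.11.15, pandas 2.3.3 and matplotlib 3.10.9. The fit was tested on simulated data. Members, lists and tests were chosen with earlier results of these data known. Named genes were the 5 described, all further defensin genes, up to 2 called genes each way per other list, the largest each way in marker lists, and the 3 most correlated named genes per member and measure. Alternatives were quantile normalization, library medians, array weights, robust eBayes, single-accession fits, other thresholds, a filter on tied lowest values, Spearman's rho, and each library left out. Sequences were not used here.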

Additional observations from a re-analysis of the deposited data

Results flagged for a closer look

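Stage changes of some further defensin genes differed between red and yellow accessions by the interaction contrast of limma, with the spread taken between libraries and not accessions. The difference was 1.50 in LOC107838795, 3.44 in LOC107852222, 1.79 in LOC107852231, 2.30 in LOC107854042, 1.68 in LOC107855073 and 2.14 in LOC107877546. Between pungent and non-pungent accessions the contrast was −1.70 in LOC107849945, −1.11 in LOC107852225, 1.23 in LOC107854042, 1.38 in LOC107877537, 1.88 in LOC107877540 and −2.39 in LOC107877546.

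Ec-AMP-D1-like (LOC107855074) moved in opposite directions between accessions. All libraries at 60 DAA lay above those at 20 DAA in Biq (1.20), and below in Hab (−4.88) and A101 (−5.71). The difference between the accessions was not tested.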

How the results depend on the processing

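No paired analysis was possible because the columns carry no replicate numbers. The paper describes a randomized block design. The sample titles and columns name no block, so blocks were not modelled in any fit. No average stage difference of the 5 genes moved by more than the spread between replicates, and no direction of a called gene turned. With quantile normalization the stage difference of J1-1 was 10.19 in Hab and 9.20 in A101, that of LOC107855074 was −4.50 in Hab and 0.14 in A18, 1 further defensin gene was more negative by colour, 1 PR-1 gene was higher and 2 jasmonate genes were higher, as with library medians subtracted (2). Without libraries b of A18 and Hab at 20 DAA, chosen after seeing the data, J1-1 was 11.08 in Hab, LOC107849555 −8.56, LOC107877539 −4.40, LOC107877541 7.42 and LOC107855074 0.085 in A18, and 0 jasmonate genes were higher. With a single library left out, the ranges were 11.08 to 12.04 for J1-1 in Hab and, in A18, −10.79 to −8.56 for LOC107849555, −6.53 to −4.40 for LOC107877539, 5.44 to 7.42 for LOC107877541 and −0.78 to 0.085 for LOC107855074, with 0 to 1 hevein-type and 0 to 1 jasmonate genes higher. Where this left A18 at 20 DAA or Hab at 60 DAA with 1 library, it was assumed to vary like the other groups.

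Tested against a difference of 1 (treat, not run for the F test), 3 further defensin genes were higher on average, 2 in Hab, 2 were more positive by colour, 0 and 0 by pungency, and 0 hevein-type and 0 jasmonate genes were higher. The filter on tied lowest values removed genes from the lists themselves, among them 7 of the 14 further defensin genes. Of those left, 3 were lower on average, 3 each in Hab, A101 and A18, and 1 in Biq, and 4 differed between accessions at 20 DAA. With this filter 1 snakin was higher and 0 lower, 2 hevein-type and 2 thaumatin or osmotin genes were lower, and 2 proteinase inhibitors were higher. These counts are smaller because the lists held fewer genes. With no minimum difference, 4 further defensin genes were lower in Biq and 1 more negative by colour, 4 chitinases were lower, 1 PR-1 gene was higher and 1 lower, 11 proteinase inhibitors were higher, and 3 jasmonate genes were higher and 14 lower. The cause of the other changes was not tested. Limits set by depth were not assessed, since the table holds no counts.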
